A study of Homo sapiens with 45 samples.

Results

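The contacts described here joined a captured poised enhancer to an uncaptured fragment of the same chromosome up to 500 kb away, and reached a score of 5 or more after each of 2 compounds against Polycomb repressive complex 2 (PRC2) while scoring under 1 in the DMSO control. The members were chosen by their 3 deposited scores. The rule found 317 contacts among 108024 eligible pairs and 434524 listed pairs. Of the 17328 eligible pairs called after both compounds, they made up 1.83%. Because these scores selected them, the scores of the 317 are given as a description and support nothing by themselves.

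PRC2 places the repressive mark H3K27me3 on histone H3 through its catalytic subunit EZH2 or EZH1, and its EED subunit reads that mark and keeps the complex active. Poised enhancers lie near developmental genes and carry this mark in pluripotent cells. In such cells Polycomb-bound regions, the HOX clusters among them, often lie close to each other in the nucleus. Many sites bound by PRC2 are dense in CG dinucleotides.

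Contacts were measured by poised-enhancer capture Hi-C in HNES1, an established human embryonic stem cell line, at day 5 of the change from the naive to the primed state. One group received the solvent DMSO, another UNC6852 at 2.5 µM, a degrader that brings EED to a ubiquitin ligase, and the last UNC1999 at 1 µM, an inhibitor of EZH2 and EZH1, each from 24 h before day 0. Each of the 3 conditions had 15 libraries from 3 biological replicates, 12 in batch 1 and 3 in batch 2. The deposited scores pooled the 15 libraries, so there was 1 value per pair and condition, no spread between replicates and no test. The doses differed between the compounds, which were therefore not compared as to strength, and all groups came from 1 cell line, whose markers were not checked because the scores hold no expression values. The scores are from CHiCAGO, which weighs the reads that join a pair of fragments against those its distance and its fragments would give. A pair scoring at least 5 is called a contact here. Of the eligible pairs, 44.8% were called in DMSO, 47.8% after UNC6852 and 44.2% after UNC1999, and the reads behind the scores were unknown.

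Some members had a gene's promoter in the bait or the other end, and 4 of these are shown because they span CG-dense and CG-poor ends of the contacts. RefSeq (GRCh38.p14) gave 32 promoter windows of 31 genes in or across an edge of the fragments of the members searched, 19 in baits and 13 in other ends. The search left out the members of a chromosome that is named with the processing below. Each line below is the 250 bases before a transcription start, 5′ to 3′, with every CG in capitals. EMX2, a homeobox regulator of the forebrain, starts in an other end (chr10:117542496-117542745, plus strand), as does MEIS1, a homeobox cofactor of HOX proteins (chr2:66434875-66435124, plus strand). PRKD1, protein kinase D1, has an annotated transcription start in a bait (chr14:29927097-29927346, minus strand). This window lies inside the gene, whose nearest annotated end is 0.5 kb outside the bait. KCNE2, an accessory subunit of potassium channels, starts in an other end (chr21:34363756-34364005, plus strand).
EMX2: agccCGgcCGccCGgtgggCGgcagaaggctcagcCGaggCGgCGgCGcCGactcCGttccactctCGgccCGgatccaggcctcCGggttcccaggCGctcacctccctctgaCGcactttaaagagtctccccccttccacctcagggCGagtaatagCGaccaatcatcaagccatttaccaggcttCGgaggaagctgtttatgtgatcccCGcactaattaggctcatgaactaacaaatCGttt
MEIS1: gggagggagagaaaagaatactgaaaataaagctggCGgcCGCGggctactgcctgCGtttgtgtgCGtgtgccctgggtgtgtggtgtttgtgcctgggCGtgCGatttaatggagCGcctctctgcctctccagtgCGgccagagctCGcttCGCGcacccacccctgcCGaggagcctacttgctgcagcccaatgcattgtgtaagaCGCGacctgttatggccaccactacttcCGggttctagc
PRKD1: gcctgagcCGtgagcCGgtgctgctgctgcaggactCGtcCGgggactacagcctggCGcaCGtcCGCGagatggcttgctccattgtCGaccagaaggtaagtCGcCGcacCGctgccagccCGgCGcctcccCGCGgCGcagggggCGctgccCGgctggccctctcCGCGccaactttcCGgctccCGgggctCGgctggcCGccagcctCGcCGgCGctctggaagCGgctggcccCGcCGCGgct
KCNE2: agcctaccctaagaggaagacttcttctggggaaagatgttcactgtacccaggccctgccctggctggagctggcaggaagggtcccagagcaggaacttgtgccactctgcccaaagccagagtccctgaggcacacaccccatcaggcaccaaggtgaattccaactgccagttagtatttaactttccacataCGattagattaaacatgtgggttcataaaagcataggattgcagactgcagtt
The window of EMX2 held 20 CG, that of MEIS1 16, that of PRKD1 32 and that of KCNE2 1. Over the 32 windows the median was 10.5 CG, against 16 over 22198 protein-coding promoters (quartiles 5 and 25), of which 96.8% held at least 1 CG on this strand. The contact that reached EMX2 scored 0.739 in DMSO, 6.09 after UNC6852 and 7.35 after UNC1999, and the one that reached KCNE2 0.973, 7.40 and 14.7. The promoter ends of these contacts thus ranged from CG-rich to nearly CG-free.

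In DMSO the 317 contacts scored from 0 to 0.997 with a median of 0.531, and 50 of them (15.8%) were at exactly 0. After UNC6852 they scored from 5.02 to 18.8 with a median of 6.01, and after UNC1999 from 5.00 to 14.7 with a median of 6.05. Most lay just above the calling threshold. The lower of both compound scores was under 6 in 230 of them (72.6%), at least 7 in 24 and at least 10 in 2. Of all 17328 eligible pairs called after both compounds, 7639 had a lower score under 6. Under the same rule with UNC6852 or UNC1999 in the place of DMSO, given below, the shares under 6 were 74.8% and 73.5%. Just inside the DMSO limit lay a contact from chr5:154468013-154468660 at 0.997, and just outside it 1 from chr11:2533128-2533802 at 1.00, with compound scores of 6.75 and 8.12. At the other threshold, a contact from chrX:152640590-152641013 entered with 5.00 after UNC1999, and 1 from chr12:4857481-4857848 was left out with 4.996. The number of pairs grew quickly past both limits. Pairs called after both compounds numbered 35 at a DMSO score from 0.9 to under 1 and 61 from 1 to under 1.1, and pairs under 1 in DMSO numbered 155 with a lower compound score from 5 to under 5.5 and 280 from 4.5 to under 5.

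The same rule with each compound in the place of DMSO gives the background of the rule. Contacts called in DMSO and after UNC1999 but under 1 after UNC6852 numbered 218 of 16143, or 1.35%. Contacts called in DMSO and after UNC6852 but under 1 after UNC1999 numbered 358 of 17230, or 2.08%. The 1.83% for DMSO (exact 95% binomial interval 1.64% to 2.04%) lay between those of UNC6852 (1.18% to 1.54%) and UNC1999 (1.87% to 2.30%). These intervals cover counting error only. The number of contacts low in DMSO was thus not the highest of the 3. In all 3 profiles 10928 pairs were called. The scores of the 3 sets looked alike, with 34 and 66 contacts at exactly 0 in the profile that lacked them, medians there of 0.505 and 0.523, and medians of the lower calling score of 5.53 for UNC6852 and 5.48 for UNC1999 against 5.52 for DMSO.

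**Figure D1:**
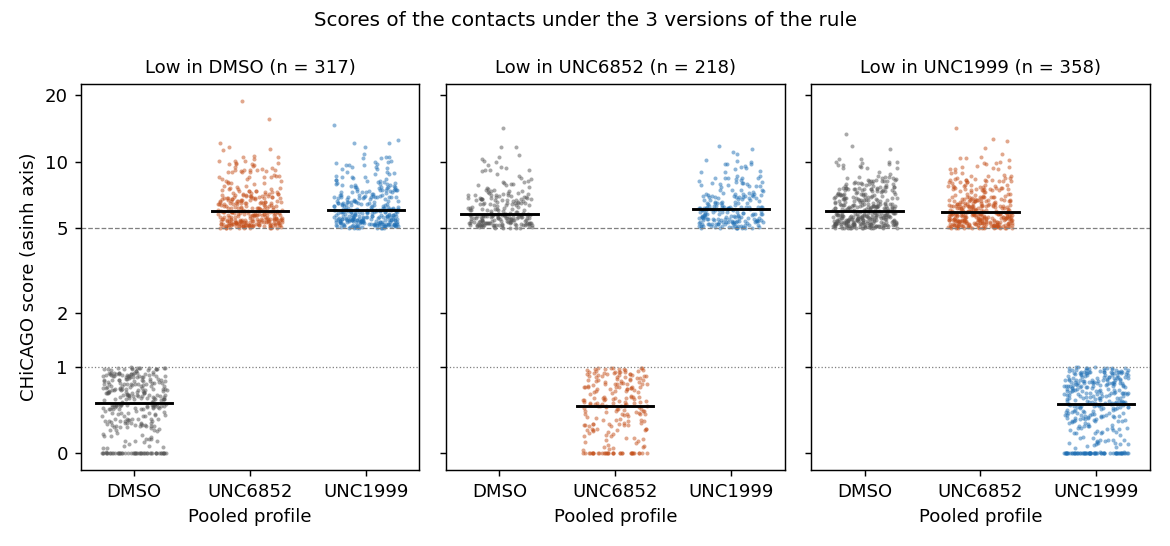
CHiCAGO scores (vertical asinh axis) of every contact in the 3 pooled profiles (horizontal axis), for the contacts low in DMSO (n = 317), low in UNC6852 (n = 218) and low in UNC1999 (n = 358). Points are contacts, bars are medians, the dashed line is the call at 5 and the dotted line the limit at 1, and the 3 panels show the same crowding of called scores just above 5.

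The position of the DMSO count among the 3 held in most other settings. In 11 of 15 it stayed in the middle, in 3 it was the highest and in 1 the lowest. The settings share most of their contacts and are not separate checks. That of 20 to 500 kb gave the same counts as the rule itself, and merging close other ends gave 317, 217 and 356. At a call of 7 the counts were 24 for DMSO, 13 for UNC6852 and 22 for UNC1999, and with absence set under 2 they were 1045, 773 and 1027. Scores quantile-normalized over all listed pairs, most of which joined different chromosomes or lay far apart, turned the order to 65, 393 and 616. That scaling moved a score of 1 to 1.75 in DMSO, 0.698 after UNC6852 and 0.632 after UNC1999, since 49.8%, 46.4% and 45.8% of all listed pairs were at 0. Quantile normalization over the eligible pairs alone, where 3.69%, 2.98% and 3.80% were at 0, gave 301, 288 and 303, with nearly equal counts in the 3 profiles.

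**Figure D2:**
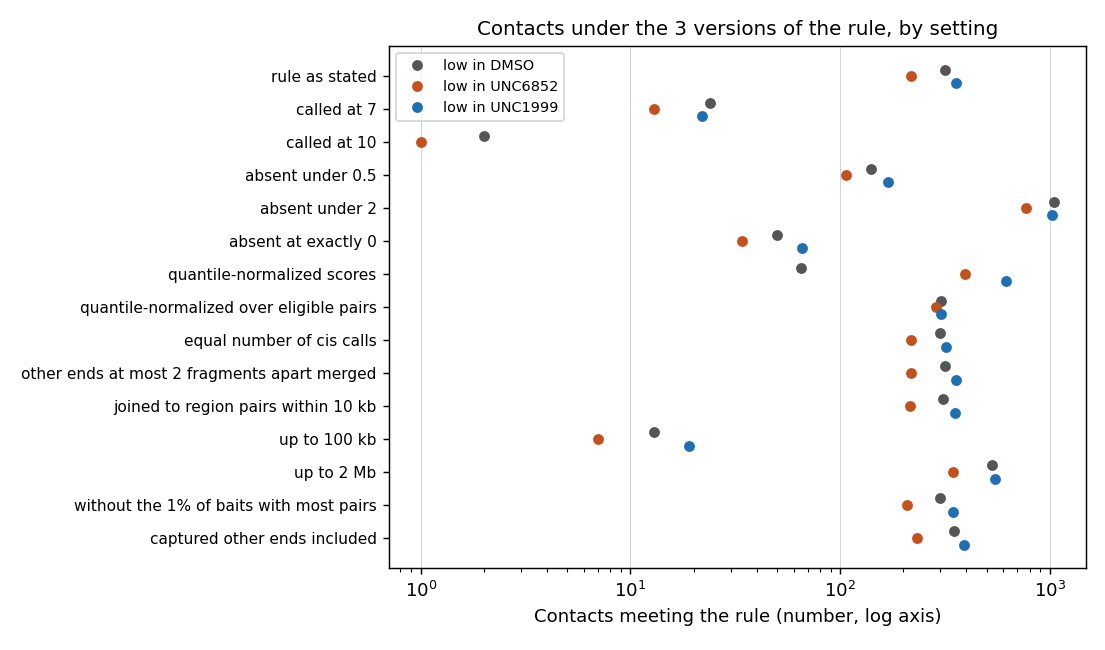
Number of contacts meeting the rule (horizontal log axis) with DMSO, UNC6852 or UNC1999 as the profile that lacks them, for the rule as stated and the other settings (vertical axis). The DMSO points lie between the other profiles' in most settings, lowest at 65 when scores were quantile-normalized over all listed pairs, and the count of 0 for UNC1999 at a call of 10 is not drawn.

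The members were long-range and weak contacts. Their median distance was 312 kb (quartiles 230 and 390 kb, range 46.5 to 499 kb), against 214 kb for all contacts called after both compounds. The share of such contacts that scored under 1 in DMSO was 0.948% at 100 to 200 kb and 4.28% at 400 to 500 kb. It was 3.01% where the lower compound score was 5 to 6 and 0.123% where it was 10 or more. The versions for UNC6852 and UNC1999 had the same course, with 3.70% and 4.97% at 400 to 500 kb, and medians of 307 and 301 kb. Baits had a median length of 551 bp against 638 bp for all contacts called after both compounds, and other ends had a median of 5221 bp against 5260 bp. Distance and score thus moved with membership, and their part in it was not tested.

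**Figure D3:**
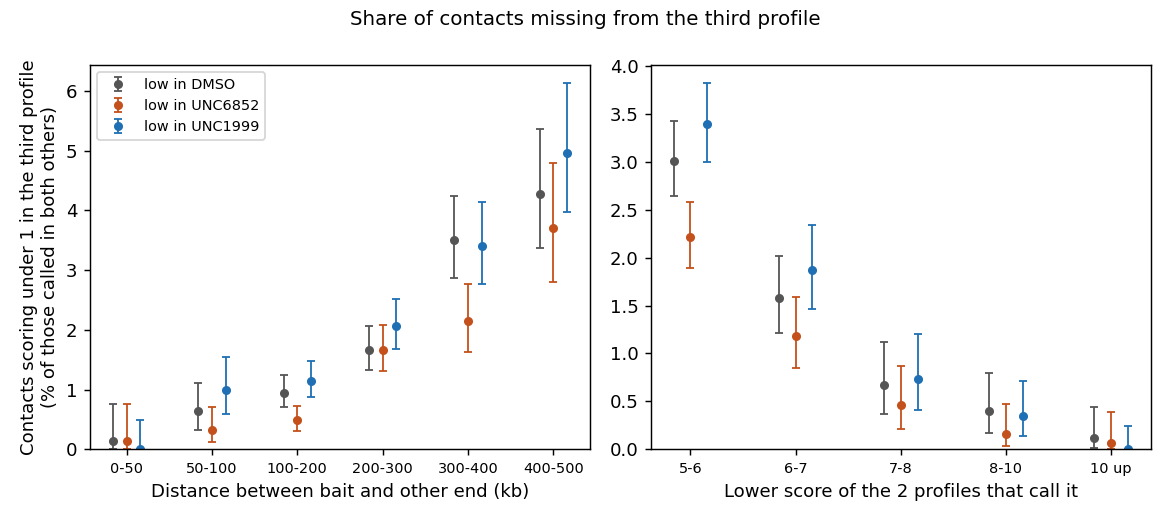
Share of contacts called in both other profiles that scored under 1 in the profile named (vertical axis, %), by distance (left) and by the lower of both calling scores (right). Points are shares and bars exact 95% binomial intervals, and in all 3 versions the share rises with distance, to 4.28% for DMSO at 400 to 500 kb, and falls with score.

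The 317 contacts came from 313 baits, of which 4 had 2 each, and formed 309 pairs of regions when baits and other ends at most 10 kb apart were joined. No region pair held more than 2. Chromosome 2 had the most members, 39 of 1562 contacts called after both compounds, followed by chromosome 1 with 29 of 2030. Of the baits, 7 also had a contact low in UNC6852 (2.24% of the baits here and 3.30% of those), and 15 a contact low in UNC1999 (4.79% and 4.32%). Of all 21000 eligible baits, 212 had a contact low in UNC6852 and 347 a contact low in UNC1999, smaller shares than among the baits here. The baits were not matched for their number of pairs. At the scale of regions, 9 members lay in the same region pair as a contact low in UNC6852 and 11 in that of a contact low in UNC1999, so that a fragment pair lacking from DMSO could lie beside one lacking from a compound.

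A score under 1 at a fragment pair does not by itself show that its regions lacked a contact in DMSO. Among the other listed pairs with both ends within 10 kb of a member's, 233 of the 317 members (73.5%, interval 68.3% to 78.3%) had at least 1 called in DMSO. The same held for 152 of 218 contacts low in UNC6852 (69.7%) and 228 of 358 low in UNC1999 (63.7%). No other pair was listed around 45 members, and around 39 more there were such pairs with no DMSO call. Over the 1988 other pairs, 50.2% were called in DMSO, 55.2% after UNC6852 and 55.0% after UNC1999. A pair is listed only if at least 1 profile called it, so DMSO calls among listed pairs are common in any case. The 73.5% was not set against ordinary contacts or random region pairs. Whether the regions of the members lacked contact in DMSO was therefore not tested, and the members are described as fragment pairs under 1 in DMSO.

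The closest pairs, at most 2 fragments away at 1 end and the same fragment at the other, were scored from other reads and were not used by the rule. Of the members, 221 had at least 1, and there were 472 in all. The mean asinh score of both compounds minus that of DMSO had a median of 0.131 over them (quartiles -0.384 and 0.570) and lay above 0 in 57.4%. The median was 0.059 over all eligible pairs and 0.0349 over neighbours of contacts called in all 3 profiles. Around contacts low in UNC6852 the matching difference was -0.0056 (297 pairs), against -0.0186 over all eligible pairs, and around those low in UNC1999 it was 0.0168 (466 pairs), against 0.0640. Neighbours of the members thus leaned to the compounds more than eligible pairs at large, by far less than the range between their quartiles. With only neighbours called in at least 2 profiles the median was -0.000876, against -0.0415 over eligible pairs so called. On scores quantile-normalized over all listed pairs it was -0.0496, against -0.125. The median itself thus changed sign, while it stayed above that of the eligible pairs in both settings.

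**Figure D4:**
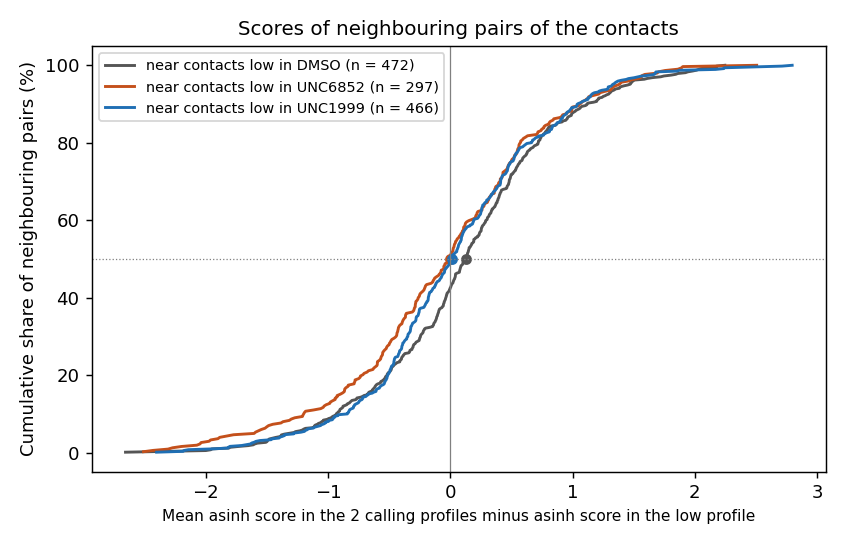
Cumulative share (vertical axis, %) of neighbouring pairs by the mean asinh score of the calling profiles minus that of the low profile (horizontal axis), for pairs near contacts low in DMSO (n = 472), UNC6852 (n = 297) and UNC1999 (n = 466). Dots mark medians of 0.131, -0.0056 and 0.0168, and the 3 curves overlap over most of their range.

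A DMSO call lay within 2 fragments of 153 members (48.3%, interval 42.6% to 53.9%), and within 20 kb of 225 (71.0%). For the versions with UNC6852 and UNC1999 the shares within 2 fragments were 45.9% and 41.1%. A neighbour called after both compounds stood beside 82 members (25.9%, interval 21.1% to 31.1%), compared with 22.0% and 20.7% for the matching neighbours in the other versions. Other contacts of the same baits, 2814 pairs, differed by a median of 0.0827, against 0.059 over all eligible pairs. For the version with UNC1999 the median was 0.146, against 0.0640, and for that with UNC6852 it was 0.0002, against -0.0186, so the value for DMSO was not the highest.

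Members with calls after both compounds in the same region pair and none in DMSO numbered 17 (5.36%, interval 3.15% to 8.45%). By the matching count there were 9 low in UNC6852 (4.13%) and 21 low in UNC1999 (5.87%), so the share for DMSO lay between those for the compounds. It was defined after the data were seen. One of the 17 joined a bait in HOXB3, an anterior HOX gene (chr17:48560014-48560613), to SKAP1, an adaptor of T-cell signalling (chr17:48188675-48193684). It scored 0 in DMSO, 6.89 after UNC6852 and 5.53 after UNC1999, and of 5 other pairs none was called in DMSO, 3 after UNC6852 and 2 after UNC1999. A second ran from 34.2 kb off NFIA, a nuclear factor I gene of glial development, into that gene, with 0 in DMSO, 6.42 and 6.16. Another lay between ONECUT3, a homeobox gene, and the side of TCF3, an E-protein gene, over 114 kb, with 0, 5.78 and 5.94. The rest included a contact from LY6G5C to CFB and NELFE, which code for complement factor B and a subunit of the negative elongation factor, at 0, 6.83 and 10.9. Baits at SIRT1, a deacetylase (0.860, 5.49 and 5.80), and at PRKD1, of which a window inside the gene is printed above (0.496, 5.30 and 5.36), were also among them. By this choice no listed pair between their regions reached 5 in DMSO, and from 2 to 6 other pairs were listed around each of the 17.

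The highest lower score was that of a contact near ABT1 on chromosome 6, which reached over 449 kb towards the histone gene H2BC11 (bait chr6:26614714-26614965, other end chr6:27060864-27066326). It scored 0.330 in DMSO, 11.7 after UNC6852 and 12.5 after UNC1999. Around it DMSO had the most calls, 23 of 31 other pairs, against 16 and 17 after the compounds. The second, in TTLL6, a tubulin-modifying enzyme, scored 0.703, 10.7 and 10.4 over 90.5 kb, and 2, 5 and 2 of 6 other pairs were called. The third, from EVA1C to TCP10L on chromosome 21, scored 0, 11.3 and 9.80, and DMSO had 7 calls among 12 other pairs, the highest of them at 10.5. Each of these 3 members thus had DMSO calls around it.

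The next 2 by lower score lay near developmental regulators, as did the seventh. Near ISL1, a LIM homeobox gene of motor neurons and heart progenitors, a contact over 408 kb towards PARP8 scored 0.740 in DMSO, 12.2 after UNC6852 and 9.69 after UNC1999, while 21 of 29 other pairs were called in DMSO, 15 and 20 after the compounds. A bait 40.0 kb from an end of GLI2, an effector of Hedgehog signalling, scored 0.630, 18.8 and 9.34 with its other end, the highest UNC6852 score of all members. Of 3 other pairs there, 2 were called in DMSO, 1 after UNC6852 and none after UNC1999. At LHX5, a LIM homeobox gene of the forebrain, most calls around the member came from the compounds. Its contact of 265 kb towards RBM19 (bait chr12:113468741-113468923) scored 0.515, 9.17 and 9.87, and 3 of 18 other pairs were called in DMSO, 10 after UNC6852 and 8 after UNC1999.

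Other members with a high lower score were mixed. ANKRD1, a cardiac ankyrin-repeat gene, lay near the bait of a contact into PCGF5, which codes for a subunit of Polycomb repressive complex 1. That contact scored 0.885 in DMSO, 9.05 after UNC6852 and 11.7 after UNC1999, and 10, 15 and 15 of 23 other pairs were called. A second member of this region pair scored 0.349, 5.15 and 6.43. At SLC24A3, a sodium, potassium and calcium exchanger gene on chromosome 20, a contact ran over 371 kb from a bait 0.95 kb outside the gene into it. It scored 0, 8.53 and 7.73, and a second from the adjacent bait 0, 5.17 and 5.78. Of 18 other pairs there, 9 were called in DMSO, 15 after UNC6852 and 13 after UNC1999. The one that scored highest in DMSO, from a bait within 10 kb to the same other end, scored 19.99, 23.2 and 21.2, so this region pair was in firm contact in DMSO as well.

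**Figure D5:**
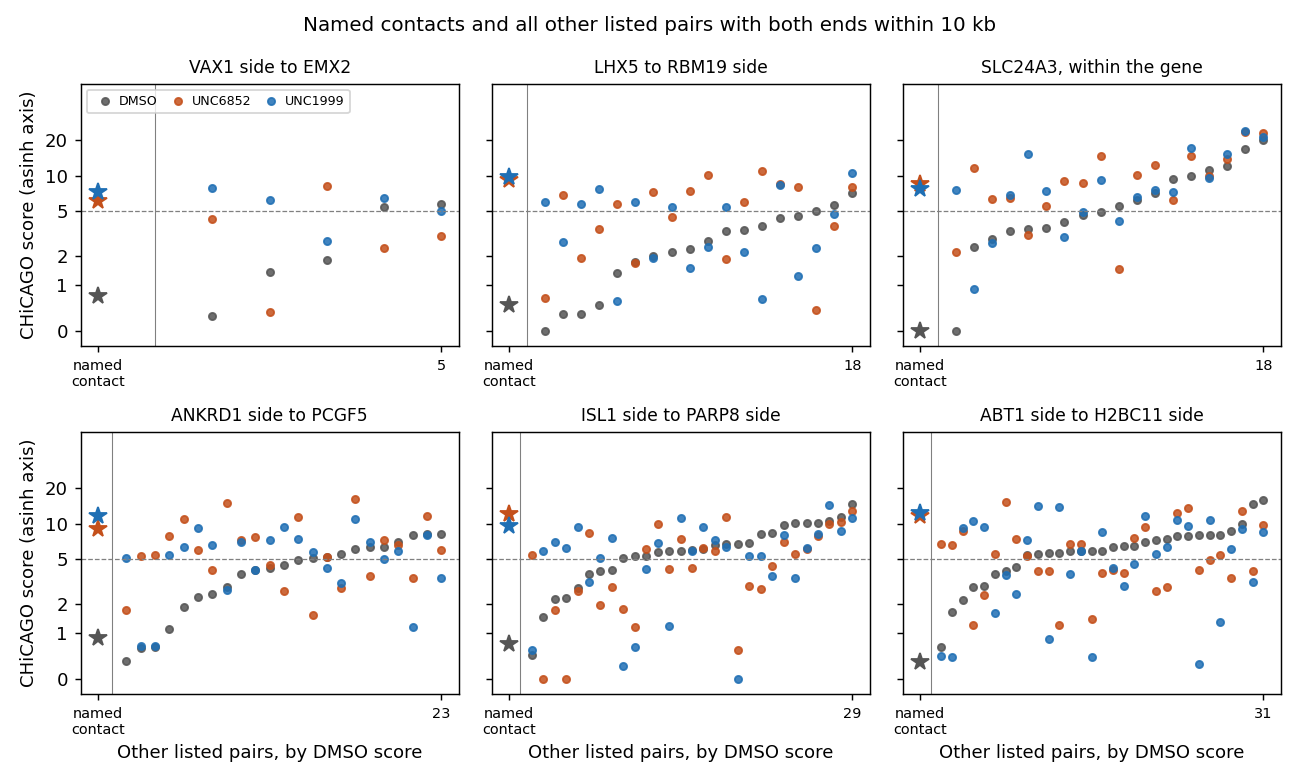
CHiCAGO scores (vertical asinh axis) of 6 named contacts (stars) and of all other listed pairs that are no members with both ends within 10 kb of theirs (dots, ordered by DMSO score along the horizontal axis), in DMSO, UNC6852 and UNC1999. The dashed line is the call at 5, and DMSO dots lie above it at most other pairs near ISL1 (21 of 29) and ABT1 (23 of 31) and at 3 of 18 at LHX5. The bait of the SLC24A3 contact lies 0.95 kb outside the gene, although the panel is titled as within it.

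The remaining members of high lower score lay at PPP3CC, a calcineurin subunit gene (0.336, 9.29 and 10.1), SIGLEC8, an immune lectin gene (0.232, 8.05 and 8.90), ZNF664-RFLNA (0.623, 7.79 and 8.31) and NFATC1 to KCNG2 (0.142, 8.996 and 7.50). No other pair was listed around the last of these. Around PPP3CC 6 of 7 other pairs were called in DMSO, 5 after UNC6852 and 6 after UNC1999. At SIGLEC8 the only other pair was called in DMSO and after neither compound. At ZNF664-RFLNA the calls were 4, 3 and 3 of 5 other pairs. Between ENAH, a regulator of actin, and SRP9, a signal recognition particle gene, a contact scored 0 in DMSO, 8.99 after UNC6852 and 7.62 after UNC1999. All 4 pairs beside it were called in DMSO, at 6.34 to 9.06, and 1 and 2 of them after the compounds. Its neighbours thus ran against it.

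Around PAX3, a paired-box regulator of neural crest and muscle precursors, there were 5 members, the most for any gene of the developmental lists nearest to a bait. PAX3 also had the most eligible pairs of the genes with at least 2 members, 565. The 4 members near VAX1 among 127 eligible pairs made up a larger share, so the count does not rank genes by share. Over all eligible pairs the members made up 0.293%. From a bait 9.58 kb from PAX3, a contact over 207 kb scored 0 in DMSO, 5.34 after UNC6852 and 10.4 after UNC1999, and 1 over 239 kb from the bait beside it scored 0.708, 7.19 and 5.28. The other end of the latter (chr2:222049602-222052156) borders the bait of another member (chr2:222052157-222052327), which ran across PAX3 to the side of RNF228 at 0.648, 9.19 and 8.54. A bait next to these, 146 kb from PAX3, reached 2 fragments in SGPP2, a sphingosine phosphatase gene, at 0.880, 7.95 and 10.04 and at 0.917, 5.62 and 8.07. The 29 baits nearest to PAX3 had 565 eligible pairs, of which 280 were called in DMSO, 348 after UNC6852 and 350 after UNC1999. Without the members, their median difference was 0.137, against 0.059 over all eligible pairs. By the other versions of the rule 1 contact each was low in UNC6852 and in UNC1999 there. The gene was singled out after its count was seen, so its 5 against 1 and 1 is a description.

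VAX1, a homeobox gene of the eye and ventral forebrain, was nearest to the baits of 4 members. A bait at its end (chr10:117139188-117140077) met a fragment in HSPA12A, 332 kb away, at 0.126 in DMSO, 11.4 after UNC6852 and 6.25 after UNC1999. A second bait 2.91 kb off the gene met another fragment in HSPA12A at 0.472, 6.53 and 5.13. The other 2, from neighbouring baits 21.9 and 21.4 kb off VAX1, reached EMX2 over 380 and 388 kb and scored 0.739, 6.09 and 7.35 and 0.349, 5.32 and 5.22. Of 7 other pairs around the latter, 2 were called in DMSO, 3 after UNC6852 and 6 after UNC1999. Around the former, 2 of 5 other pairs were called in DMSO, 1 after UNC6852 and 4 after UNC1999. Around the contact from the bait at the end of VAX1, the calls were 9, 7 and 10 of 17 other pairs. The other version for UNC1999 also gave 4 contacts near VAX1, and that for UNC6852 gave 1. Over the 127 eligible pairs of its 13 baits, the calls were 60, 58 and 59, while the median difference was 0.0813 without the members. The number of calls thus hardly differed there, and the scores leaned to the compounds slightly more than the 0.059 over all eligible pairs.

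FOXB1 and FOXD2, both forkhead genes, were each nearest to the baits of 3 members. Those of FOXB1 scored 0.594, 5.77 and 6.06 in DMSO, UNC6852 and UNC1999 over 143 kb, 0.774, 6.63 and 6.08 over 260 kb, and 0.762, 5.97 and 9.01 over 399 kb. Over its 156 eligible pairs the calls numbered 60, 83 and 77, with a median difference of 0.151 without the members, and no contact there was low in a compound by the other versions. Those of FOXD2 reached TRABD2B (0.627, 6.26 and 6.67), a fragment beside PDZK1IP1 (0, 5.23 and 5.30) and PDZK1IP1 itself (0.815, 6.94 and 8.48). There the calls were 113, 128 and 138 of 266 pairs, and 2 contacts were low in UNC6852. The median difference at FOXD2 was 0.0636 without the members. FOXC2, FOXF1, GATA4 and SIM1 were each nearest to the baits of 2 members. Without the members, their median differences were 0.161, 0.0392, 0.0250 and 0.0227, against 0.059 over all eligible pairs. Loci with several members thus lay on both sides of the value over all eligible pairs.

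Near FOXF1, a forkhead gene of the lateral mesoderm, 2 baits reached towards IRF8, an immune regulator, over 468 and 461 kb, and scored 0, 8.14 and 6.45 and 0.736, 6.19 and 6.35. Of 7 other pairs around the first, 3 were called in DMSO, 2 after UNC6852 and 3 after UNC1999. Both members at VGLL2, a cofactor of muscle gene regulation, faced RFX6, a regulator of endocrine cells. They scored 0.462, 6.87 and 7.33 over 295 kb and 0.566, 6.74 and 7.84 over 307 kb, and a bait beside the first met its other end at 11.1 in DMSO. Within COL23A1, a collagen gene, 2 members scored 0.605, 5.41 and 5.51 and 0.391, 5.25 and 8.63. The pair on chromosome 8 from the side of TYW2 to FER1L6 scored 0.0465, 6.14 and 8.53 and 0.0105, 6.02 and 5.62, beside DMSO calls in 7 of 7 and 3 of 4 other pairs. A further member from the first of these baits, with another fragment in FER1L6 over 438 kb, scored 0, 5.06 and 5.04, and neither of its 2 other pairs was called in DMSO. In the region pairs of FOXF1, VGLL2, COL23A1 and the first of FER1L6, both members lay among other pairs that DMSO called.

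By the gene end nearest to the bait, the HOX clusters had 5 members among 374 contacts called after both compounds (1.34%, against 1.83% over all). Low in UNC6852 were 9 of 361 (2.49%, against 1.35%) and low in UNC1999 5 of 379 (1.32%, against 2.08%). Within 1000 bp of a gene end, by bait or other end, the HOX clusters had 1 member of 213 contacts (0.469%). By that measure 3 of 214 were low in UNC6852 (1.40%) and 4 of 233 in UNC1999 (1.72%). At HOXC13, a posterior HOX gene, a contact into SMUG1, a DNA repair gene, scored 0.881 in DMSO, 5.91 after UNC6852 and 5.38 after UNC1999. Between HOXD3 and the side of MTX2, a contact of 278 kb scored 0, 10.1 and 6.98, while 5 of 8 other pairs were called in DMSO. From near HOXD13 a contact of 412 kb towards LNPK scored 0.677, 6.56 and 6.94, and from near HOXD8 one of 489 kb beyond MTX2 0.581, 5.55 and 5.90. The HOXB3 contact with SKAP1 was described above, and 2 more members joined baits in SKAP1 (chr17:48159065-48159624 and chr17:48159625-48160328) to a fragment on the HOXB side of that gene, 327 kb away. They scored 0.314, 6.91 and 5.47 and 0.665, 5.85 and 5.23, and of 10 other pairs 5 were called in DMSO, 7 after UNC6852 and 5 after UNC1999. That fragment lies between SKAP1 and the HOXB cluster, so of these 3 members only the HOXB3 contact ran from the cluster into SKAP1.

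Of the other gene lists, few were touched within 1000 bp of a gene end by a member's bait or other end. The homeobox list of 121 genes had 4 members among 136 contacts called after both compounds, namely those at VAX1, the pair at EMX2 and 1 that reached MEIS1 from outside the gene and scored 0.917 in DMSO, 7.63 after UNC6852 and 5.15 after UNC1999. The mesoderm and endoderm list had 2 of 93, at FOXA2, the forkhead regulator of endoderm (0.691, 9.11 and 5.96), and at MYOD1, the regulator of skeletal muscle (0.554, 5.21 and 6.59). The neural list had 1 of 43 at SOX14 (0.609, 5.41 and 5.29) and the axon guidance list 1 of 18 at EPHB2, an ephrin receptor gene (0.320, 5.44 and 9.03). The member at FOXA2 was also the only one at a gene of the trophoblast and extraembryonic list, among 62 contacts. The lists of developmental signalling, Polycomb and Trithorax subunits, naive pluripotency, general and primed pluripotency, and housekeeping genes had none among 65, 18, 23, 10 and 2 contacts, numbers too small to tell 0 from the 1.83% over all. Around FOXA2 24 of 40 other pairs were called in DMSO, and around MEIS1 18 of 28. At EPHB2 both other pairs were called in DMSO and neither after a compound. At MYOD1 12 of 20 other pairs were called in DMSO, 8 after UNC6852 and 16 after UNC1999. At SOX14 the calls were 7, 7 and 10 of 21.

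Taken as one group of 421 genes, the 6 developmental lists were touched by 9 of the 317 members (2.84%, interval 1.31% to 5.32%). By the other versions they were touched by 12 of 218 contacts low in UNC6852 (5.505%, 2.88% to 9.42%) and 11 of 358 low in UNC1999 (3.07%, 1.54% to 5.43%). The percentage of contacts at these genes that were missing from the profile was 1.58%, 2.12% and 1.85%, near the 1.83%, 1.35% and 2.08% over all. By the gene end nearest to the bait, 68 members (21.5%, 17.1% to 26.4%), 49 low in UNC6852 (22.5%) and 45 low in UNC1999 (12.6%, 9.32% to 16.5%) fell to these lists. At these baits 2725 contacts were called after both compounds. Within that, the mesoderm and endoderm list had 23 members of 600 contacts (3.83%), against 2.44% and 1.101% in the other versions, and the other homeobox list 21 of 1046 (2.01%, against 1.26% and 1.80%). By nearest gene end the share among members was thus near that among contacts low in UNC6852 and above that among contacts low in UNC1999, and by the count within 1000 bp it was below the former and near the latter. The share missing by nearest gene end, 2.50%, stood above the 1.83% over all for DMSO, as did 1.97% against 1.35% for UNC6852, while for UNC1999 it was 1.72% against 2.08%.

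Baits lay within 1000 bp of a protein-coding gene end in 68 members (21.5%), in a gene body in 111 and between genes in 138. For all contacts called after both compounds the share at gene ends was 21.4%. Other ends lay at a gene end in 43 members (13.6%, 9.99% to 17.8%), as in 12.5% of all contacts called after both compounds and 12.0% of those low in UNC1999. Only 13 of the 218 contacts low in UNC6852 did so (5.96%, 3.21% to 9.98%). Among members with a gene at the other end were ESYT3, reached from the side of FOXL2, a regulator of the ovary (0.488, 6.4999 and 5.88), and IL9, an interleukin gene reached from the side of TIFAB (0.335, 6.86 and 5.80). The DMSO members thus resembled contacts at large in where their ends lay.

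Members whose neighbours leaned most to the compounds lay at PCDH17, a protocadherin gene, where the contact scored 0, 5.14 and 5.17 and 3 neighbours differed by a mean of 1.40. They were followed by COL1A2, a chain of collagen I (0.651, 5.52 and 5.71, mean 0.978), and a contact between the sides of PJA1 and EFNB1 on the X chromosome (0.438, 5.93 and 7.18, mean 0.921). At COL1A2 the 5 other pairs included 2 called in DMSO, 3 after UNC6852 and 4 after UNC1999. At PCDH17 the calls were 2, 5 and 2 of 6 other pairs. Around the contact of PJA1 and EFNB1 they were 2, 3 and 1 of 6, with a mean difference of -0.020. The opposite end was held by the side of RNASE2, a ribonuclease gene, towards OR6S1, an odorant receptor gene, where the contact scored 0, 6.56 and 7.86. Its 3 neighbours scored 7.07, 15.6 and 4.71 in DMSO and 0.268 to 0.961 after UNC6852, a mean of -1.47. CUX1, a homeobox gene (0.603, 5.20 and 6.97), and the contact of ENAH followed, at -0.942 and -0.793. Members were thus found both where the surrounding pairs were lower and where they were higher in DMSO.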

How the data were processed

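Poised-enhancer capture Hi-C was measured in 45 libraries of HNES1 cells. The authors deposited CHiCAGO scores, 1 for each fragment pair in each condition's pool of 15 libraries, per the file headers and the labels. Per the submitters' processing notes the build is GRCh38. The aligner and the settings of CHiCAGO are not given in the sources used here. All 434524 listed pairs scored at least 5 in at least 1 profile, so a pair that no profile called is not listed, and the read depth is unknown.

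From these scores, members were taken by the rule stated above, and the same rule was applied with each compound in the place of DMSO. Calls were scores of at least 5. Neighbours shared 1 fragment with a member and lay at most 2 fragments away at the other end. Their differences are of asinh scores, mean of the calling profiles minus the low profile. Genes came from RefSeq GRCh38.p14 (20052 protein-coding genes), whose table gives no strand, so a gene end is either annotated end, within 1000 bp of the fragment. The 11 gene lists held 567 symbols, all matched, 2 by an older symbol. The 21 members on chromosome 8 were left out of the search for promoter windows, so the window counts do not cover all members.

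Contacts were named by rule: the 15 of highest lower compound score, up to 3 per gene list, the 8 region pairs with 2 members, and the 3 highest and 3 lowest by the mean difference of at least 3 neighbours. Loci with several members by nearest gene, members supported in both compounds, and contacts with printed promoters were added after their values were seen. The members and lists were chosen with earlier results of these data known. Intervals are exact (Clopper-Pearson) 95% intervals. The code was checked on simulated data, where it returned 200 of 200 planted contacts among 10000 pairs. The planted contacts met the rule by construction, so this checks the code and not how the rule performs on real scores. The tools were pandas 2.3.3, numpy 2.4.6 and scipy 1.17.1 under Python 3.11.15, with matplotlib 3.10.9 for drawing.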

Additional observations from a re-analysis of the deposited data

How the results depend on the processing

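With 1 pooled profile per condition no replicate could be left out. No paired analysis was possible because the columns are pooled over replicates. Counts low in DMSO, UNC6852 and UNC1999, which were 317, 218 and 358, became 24, 13 and 22 with calls at 7, 2, 1 and 0 at 10, 141, 107 and 169 with absence under 0.5, 1045, 773 and 1027 under 2, and 50, 34 and 66 at exactly 0. They were 13, 7 and 19 up to 100 kb and 527, 345 and 548 up to 2 Mb. These shifts follow from the construction of the settings. Quantile normalization over all listed pairs gave 65, 393 and 616. All other settings moved each count by less than 1.5 times. The median neighbour difference, 0.131 for DMSO, was 0.0853 within 5 fragments and with both ends within 10 kb, -0.0496 on quantile-normalized scores and -0.000876 with neighbours called in at least 2 profiles. For UNC6852, -0.0056 became 0.104 within 1 fragment, -0.0592 within 10 kb of 1 end, 0.0167 with log2(score + 1), 0.0302 on quantile-normalized scores, -0.136 with neighbours called in at least 2 profiles and -0.0738 with both ends within 10 kb. For UNC1999, 0.0168 became -0.0098 within 10 kb of 1 end, 0.0306 with log2(score + 1), 0.0755 on quantile-normalized scores, -0.162 with neighbours called in at least 2 profiles and -0.0168 with both ends within 10 kb. The cause was not tested. Contacts at the 6 developmental lists, 9, 12 and 11, became 3, 1 and 1 within 0 bp, 38, 35 and 30 within 5000 bp, 33, 28 and 29 by gene body, and 68, 49 and 45 by the gene end nearest to the bait. The search with both ends within 10 kb, the nearest gene end, a call within 20 kb and quantile normalization over eligible pairs were chosen after seeing the data. Low scores have no known read depth, so a score under 1 cannot be told apart from few reads.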
